A study of Mus musculus with 6 samples.

Results

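The genes that bring glucose into the heart muscle cell, break it down to pyruvate and lactate, store it as glycogen and pass pyruvate to the mitochondrion were compared between primary cardiomyocyte cultures with and without induction of the RIT1 M90I variant. The 39 genes were listed by name, with earlier results of these data known, and each was matched to its Ensembl gene ID in the GENCODE M21 annotation of the mouse genome build GRCm38 (mm10). They take up 40 of the 54532 gene IDs in the expression table, because Aldoa has a second ID, which stood at 0.316 to 0.899 FPKM and was left out of the values below. All 39 passed the filter on low values, a mean of at least 0.5 FPKM over the 6 samples, as did 13794 gene IDs in all.

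Cells of neonatal mouse hearts, labelled as primary cardiac myocytes, carried a Rit1 locus whose M90I allele is switched on by Cre recombinase. RIT1 is a small RAS-family GTPase, and its gain-of-function variants are a cause of Noonan syndrome with thickened heart muscle. On day 3 after isolation the cultures were infected with an adenovirus encoding GFP (AdGFP, genotype Rit1 +/+, n = 3) or GFP-Cre (AdCre, genotype Rit1 M90I/+, n = 3), and messenger RNA was later selected on poly-T beads and sequenced. Both groups received virus and GFP, and no culture without the inducible allele was given Cre, so effects of the variant and of the recombinase cannot be told apart. The labels call the samples biological replicates 1 to 3 in each group and do not say whether these were separate animals or cultures, so p-values measure the spread between these samples.

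Glycolysis splits glucose into pyruvate in the cytosol and is drawn on by immature heart muscle far more than by the adult heart, which burns mainly fatty acids. Many steps are served by several isoforms, and striated muscle has its own forms of the glucose transporter, phosphofructokinase, phosphoglycerate mutase, enolase and glycogen phosphorylase. Pyruvate is either reduced to lactate and exported, or carried into mitochondria and turned into acetyl-CoA by the pyruvate dehydrogenase complex, which a family of kinases switches off.

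Most of the 39 genes stood lower in AdCre than in AdGFP, by modest amounts that varied between samples. By fitted log2 difference (AdCre minus AdGFP, on log2(FPKM + 0.1), the scale of every log2 difference below), 33 genes were lower and 6 higher, against 50.4% lower and 49.6% higher among all genes tested. The median was -0.35, beside a median of 0.00 over all genes tested. Comparing same-numbered samples, 27 of the 39 genes were lower in AdCre in all 3 pairs, where 24.5% of all genes were, and 1 gene (Pfkfb4) was higher in all 3, where 23.9% were. The muscle forms of phosphoglycerate mutase (Pgam2) and enolase (Eno3) had the smallest paired p-values among the genes that stood lower, and Pfkfb4, a regulator of phosphofructokinase, stood higher.

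In the test without pairing (limma, Benjamini-Hochberg adjustment over 13794 genes, adjusted p under 0.05), none of the 39 genes passed, and 0.0% of all genes passed as lower and 0.00725% (1 gene) as higher. At an unadjusted p under 0.05, 3 members were lower (Pfkl, Aldoc and Pgam2; 5.45% of all genes) and 1 was higher (Pfkfb4; 4.71%). Same-numbered samples deviated together from their group means, so the replicate number was also fitted as a block. With the block 5 members passed: Slc2a4, Aldoc, Pgam2 and Eno3 fell and Pfkfb4 rose, against 6.15% of all genes (3.51% lower and 2.64% higher). Without pair 2, and without pair 3, none of the 39 passed, and without pair 1 the 5 that passed were Aldoc, Eno3, Pdk2, Pgam2 and Pygm, all lower (3.25% of all genes were). None of the 39 passed with the block either when the variance trend or the filter on low values was left out. With every sample rescaled to the same FPKM total (TPM), Eno3, Pgam2 and Pfkfb4 passed with the block and Slc2a4 and Aldoc did not, while the background turned to 2.44% lower and 3.9% higher. Reads worked back from the FPKM values were also tested by voom with the block. There 17 members passed, 16 lower and 1 higher (Pfkfb4), against a background of 6.14% lower and 4.97% higher. The 16 were Aldoa, Aldoc, Eno3, Gapdh, Gpi1, Gys1, Ldha, Pdk1, Pfkl, Pfkm, Pgam2, Pgk1, Pygm, Slc16a1, Slc2a4 and Tpi1.

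**Figure D1:**
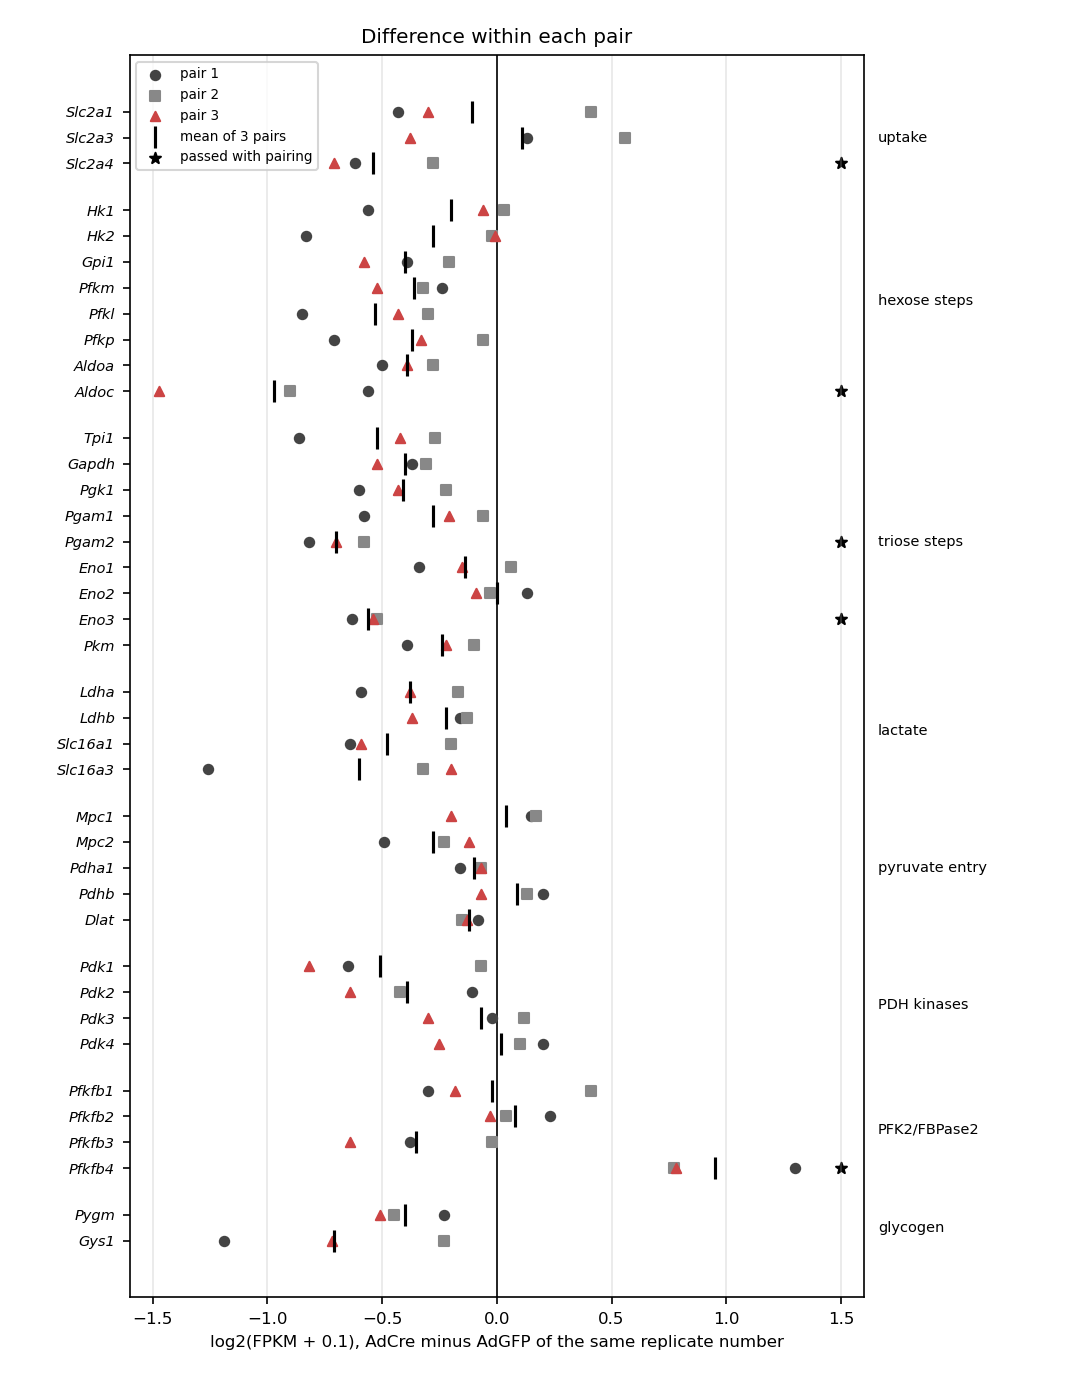
Log2 difference between AdCre and AdGFP for each of the 39 genes, grouped by role, with 1 point for each same-numbered pair of samples and a short bar for their mean. The stars at the right mark the 5 genes that passed with the replicate block (Slc2a4, Aldoc, Pgam2, Eno3 and Pfkfb4), and most points lie left of 0.

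The summed level of the 39 genes was 8912, 7395 and 5486 FPKM in AdGFP replicates 1 to 3 and 6324, 6372 and 4180 FPKM in AdCre replicates 1 to 3, and although the ranges overlapped, each pair was lower in AdCre. As a share of all FPKM in the sample this was 2.62%, 2.47% and 1.97% in AdGFP and 2.07%, 2.24% and 1.55% in AdCre. The genes moved up and down together within a group as well. AdGFP replicate 1 held the highest AdGFP value for 27 of the 39 genes (41.3% of all genes), and AdCre replicate 3 held the lowest AdCre value for 37 (32.2% of all genes). Leaving out either of these samples moved the median difference, to -0.16 without AdGFP replicate 1 (29 genes lower) and to -0.12 without AdCre replicate 3 (26 genes lower).

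**Figure D2:**
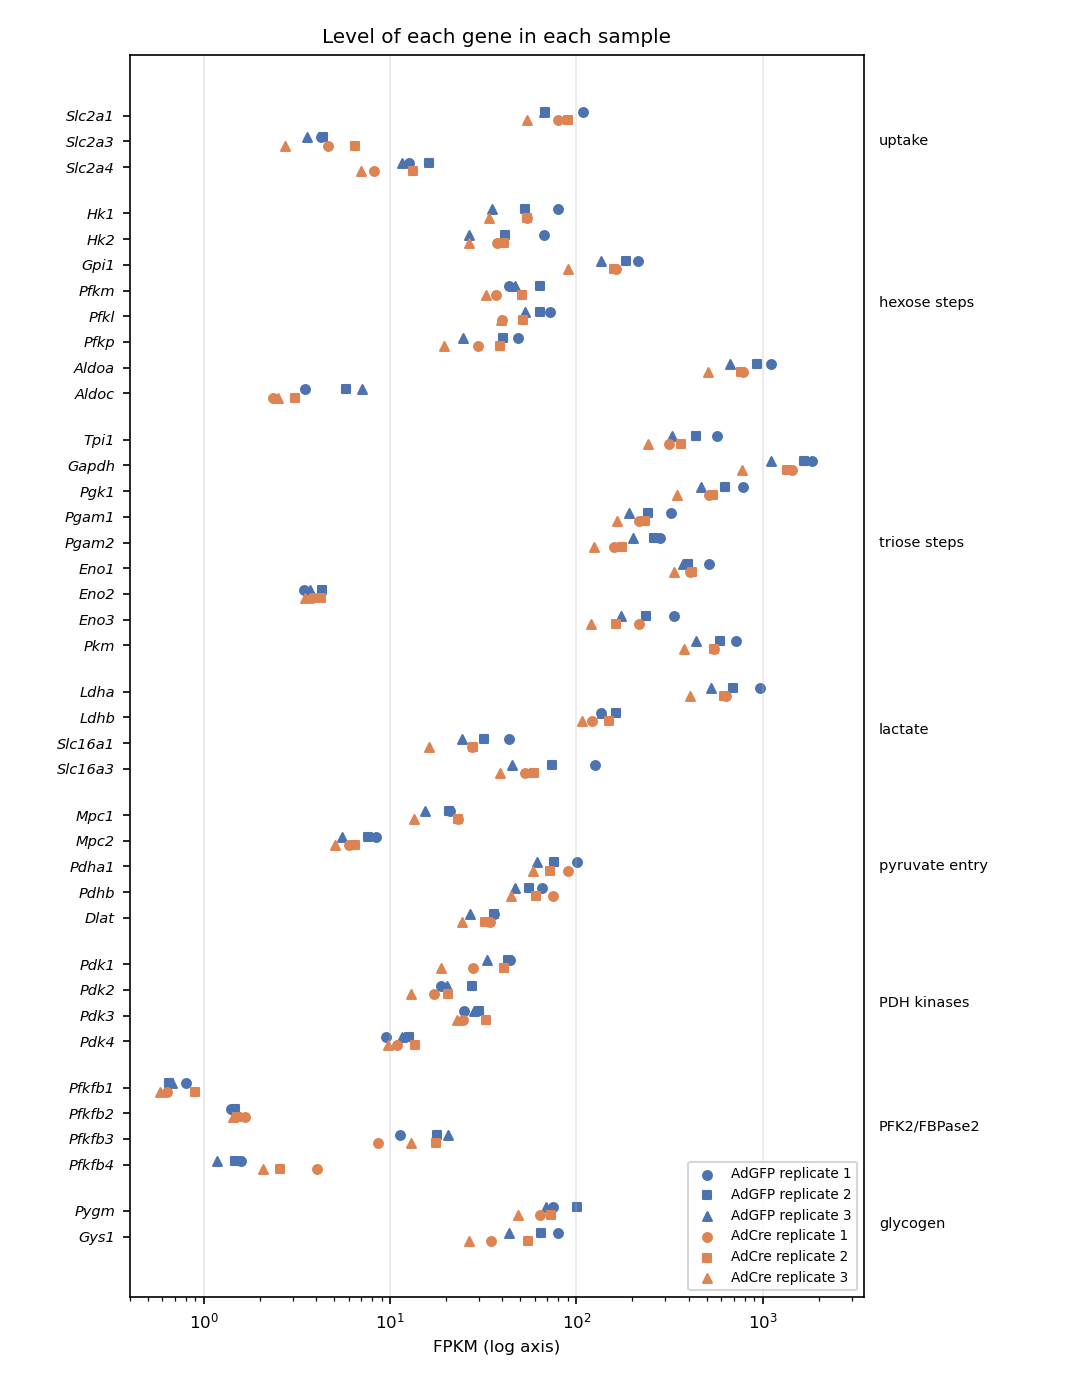
FPKM of each of the 39 genes in the 6 samples on a log axis, grouped by role, with AdGFP in blue and AdCre in orange and 1 marker shape for each replicate number. Levels run from under 1 FPKM (Pfkfb1) to 1846 FPKM (Gapdh), and for most genes the 2 groups overlap.

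Glucose enters through facilitative transporters. Their 3 genes had a median log2 difference of -0.11 (-0.02 after rescaling to TPM, beside 0.09 for all genes tested). It was 0.12 without AdGFP replicate 1 and 0.11 without AdCre replicate 3 (1 gene lower and 2 higher in each), and -0.26 to -0.17 without any of the other samples in turn. Slc2a4 (ENSMUSG00000018566, chromosome 11, 69942539 to 69948188) encodes GLUT4, the insulin-responsive transporter of muscle and fat. It read 12.6, 16.2 and 11.6 FPKM in AdGFP replicates 1 to 3 and 8.18, 13.3 and 7.02 FPKM in AdCre. The groups overlapped through AdCre replicate 2, but each pair was lower in AdCre, by 0.62, 0.28 and 0.71 on the log2 scale. The fitted difference was -0.54 ± 0.26 (SE; adjusted p = 0.547) without the block and -0.54 ± 0.11 (adjusted p = 0.0485) with it, and it was -0.35 without AdCre replicate 3. Slc2a1, the basal transporter GLUT1 and the most abundant of the transporters, read 108, 68.1 and 66.9 FPKM in AdGFP and 80.2, 90.6 and 54.2 FPKM in AdCre. Its pair 2 was higher in AdCre while pairs 1 and 3 were lower. Slc2a3, the high-affinity transporter GLUT3, averaged 4.06 ± 0.418 (SD) FPKM in AdGFP and 4.62 ± 1.87 FPKM in AdCre.

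The steps from glucose to triose phosphates cost ATP and include the committed step, and all 8 of their genes were lower in AdCre by fitted difference, with a median of -0.38. Without AdGFP replicate 1, 6 were lower and 2 higher (median -0.24), without AdCre replicate 3, 7 were lower and 1 higher (-0.15), and without AdGFP replicate 3 the median was -0.60. The hexokinases, which trap glucose as its phosphate, were both highest in AdGFP replicate 1. Hk1 read 79.7, 53.2 and 35.4 FPKM in AdGFP and 54.1, 54.2 and 34.0 FPKM in AdCre, and Hk2, the form rich in insulin-responsive muscle, read 66.8, 41.3 and 26.7 FPKM against 37.6, 40.8 and 26.6 FPKM. For both, pairs 2 and 3 differed by less than 0.1 on the log2 scale, and the difference lay in pair 1 (-0.56 and -0.83). Gpi1, the isomerase that follows, read 213, 185 and 135 FPKM in AdGFP and 163, 159.9 and 90.0 FPKM in AdCre, lower in each pair without passing (block adjusted p = 0.0688).

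Phosphofructokinase, the committed step, is built from muscle (Pfkm), liver (Pfkl) and platelet (Pfkp) subunits. Pfkl (ENSMUSG00000020277, chromosome 10, 77986947 to 78010083) read 72.1, 63.7 and 52.9 FPKM in AdGFP and 40.1, 51.6 and 39.3 FPKM in AdCre. Every AdCre value was below every AdGFP value, a separation that 8.02% of all genes showed. The log2 difference was -0.53 ± 0.17 (SE), with an adjusted p of 0.367 without the block and 0.0608 with it. Pfkm read 43.6, 63.6 and 47.0 FPKM against 36.9, 50.9 and 32.7 FPKM, and Pfkp read 48.6, 40.3 and 24.6 FPKM against 29.7, 38.7 and 19.5 FPKM. Both were lower in all 3 pairs with overlapping groups. By FPKM, the muscle form made 47.3% to 65.6% of the sum of Pfkm and Pfkp in AdGFP and 55.3% to 62.6% in AdCre. Of the sum of Pfkm and Pfkl it made 37.7% to 49.97% in AdGFP and 45.4% to 49.7% in AdCre. FPKM divides reads by exon length, here 3340 (Pfkm), 6675 (Pfkl) and 13401 (Pfkp) bases over all annotated transcripts. The shares therefore depend on those lengths.

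Aldolase then cleaves the sugar. Aldoa, the muscle form, was among the most abundant of the 39 at 1115, 927 and 668 FPKM in AdGFP and 789, 765 and 508 FPKM in AdCre, lower in each pair (-0.50, -0.28 and -0.39). Aldoc (ENSMUSG00000017390, chromosome 11, 78322968 to 78327781), the form best known from brain, was read at 3.51, 5.81 and 7.09 FPKM in AdGFP and 2.35, 3.07 and 2.5 FPKM in AdCre. The groups did not overlap, and its difference was the furthest below 0 of the 39 genes. The fit gave -0.97 ± 0.27 (SE; adjusted p = 0.319), and with the block -0.97 ± 0.18 (adjusted p = 0.0430).

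The steps from triose phosphate to pyruvate return ATP, and their 9 genes had a median difference of -0.40, which moved to -0.24 when AdGFP replicate 1 was left out, to -0.13 when AdCre replicate 3 was, and to -0.61 when AdGFP replicate 3 was. Tpi1, which interconverts the triose phosphates, read 572, 439 and 325 FPKM in AdGFP and 315, 363 and 243 FPKM in AdCre. Gapdh, the oxidising step and a common reference gene, read 1846, 1667 and 1111 FPKM in AdGFP and 1431, 1344 and 775 FPKM in AdCre. Pgk1, the first ATP-yielding step, read 782, 625 and 468 FPKM against 517, 538 and 348 FPKM. Gapdh ran from -0.62 to -0.12 over the fits leaving out a sample. These 3 genes were lower in AdCre in each pair with overlapping groups, and each missed the threshold with the block (adjusted p = 0.0747, 0.0716 and 0.0744). Pkm, the pyruvate kinase that ends the pathway, read 715, 591 and 440 FPKM against 546, 551 and 377 FPKM (log2 difference -0.24 ± 0.25 SE, block adjusted p = 0.188, and -0.43 to -0.06 leaving out each sample in turn).

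Phosphoglycerate mutase gave the smallest paired p-value of the 39 genes, in its muscle form. Pgam2 (ENSMUSG00000020475, chromosome 11, 5801640 to 5803733, minus strand) read 281, 262 and 201 FPKM in AdGFP and 159.7, 175 and 124 FPKM in AdCre. All AdCre values lay below all AdGFP values, and the mean went from 248 ± 41.9 (SD) FPKM in AdGFP to 153 ± 26.5 FPKM in AdCre, a ratio of 0.616. The pair differences were close to one another at -0.82, -0.58 and -0.70. The fit gave -0.70 ± 0.20 (SE; adjusted p = 0.324) and, with the block, -0.70 ± 0.08 (adjusted p = 0.0176). Pgam1, the form of brain and most other tissues, was as abundant at 324, 243 and 191 FPKM in AdGFP and differed less, at 217, 234 and 166 FPKM in AdCre (-0.28 ± 0.23 SE, block adjusted p = 0.206, and -0.47 to -0.09 leaving out each sample in turn).

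Enolase follows. Eno3 (ENSMUSG00000060600, chromosome 11, 70657202 to 70662513), the muscle form, read 336, 235 and 173 FPKM in AdGFP and 217, 164 and 119.5 FPKM in AdCre. The groups overlapped because AdCre replicate 1 lay above AdGFP replicate 3, yet the pairs differed by nearly the same amount (-0.63, -0.52 and -0.54). Its log2 difference was -0.56 ± 0.30 (SE; adjusted p = 0.610) without the block and -0.56 ± 0.07 (adjusted p = 0.0226) with it. It was -0.32 without AdGFP replicate 1 and -0.34 without AdCre replicate 3. Eno1, the ubiquitous form, read 518, 398 and 372 FPKM in AdGFP and 409, 416 and 335 FPKM in AdCre, with pair 2 slightly higher in AdCre. Eno2, the neuronal form, averaged 3.84 ± 0.444 (SD) FPKM in AdGFP and 3.84 ± 0.377 FPKM in AdCre.

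Lactate dehydrogenase and the lactate carriers had a median difference of -0.43 (-0.24 without AdGFP replicate 1 and -0.20 without AdCre replicate 3). All 4 genes were lower in each pair without passing either test. With voom and the block, Ldha and Slc16a1 passed as lower (6.14% of all genes did). Ldha, which favours lactate formation, read 963, 695 and 530 FPKM in AdGFP and 639, 618 and 408 FPKM in AdCre. Ldhb, the heart form, read 136, 163 and 138 FPKM against 121, 149 and 107 FPKM. Ldha was thus several-fold above Ldhb in these neonatal cells, Ldhb making 12.3% to 20.6% of their sum in AdGFP and 15.97% to 20.7% in AdCre. Slc16a1 (MCT1), which carries lactate in either direction, read 43.2, 32.0 and 24.5 FPKM against 27.7, 27.8 and 16.3 FPKM. Slc16a3 (MCT4), the exporter of glycolytic cells, read 127, 74.1 and 45.0 FPKM against 52.8, 59.2 and 39.05 FPKM, and its difference was mainly that of pair 1 (-1.26, against -0.32 and -0.20).

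The 5 genes for the entry of pyruvate into mitochondria had a median of -0.10 (-0.01 after rescaling to TPM, beside 0.09 for all genes tested). The median turned to 0.09 without AdGFP replicate 1 and 0.05 without AdCre replicate 3. It was -0.26 without AdGFP replicate 3 and -0.22 without AdCre replicate 1. Mpc1, a subunit of the mitochondrial pyruvate carrier, read 21.05, 20.6 and 15.5 FPKM in AdGFP and 23.3, 23.2 and 13.5 FPKM in AdCre. Pdha1, the catalytic subunit of pyruvate dehydrogenase, read 101, 75.7 and 61.7 FPKM against 89.9, 72.1 and 58.9 FPKM. In neither gene did the groups separate, and the Pdha1 pairs differed by only -0.16, -0.07 and -0.07. Among the others, Mpc2 had the difference furthest from 0 (-0.28 ± 0.19 SE, block adjusted p = 0.179), while Dlat (-0.12) and Pdhb (0.09) lay near 0. None of the 5 passed with or without the block.

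Among the kinases that inhibit pyruvate dehydrogenase, Pdk1 and Pdk2 stood lower in AdCre in each pair and Pdk3 and Pdk4 did not. None passed with or without the block over all 6 samples. Pdk1, a target of hypoxia signalling, read 44.01, 42.7 and 33.0 FPKM in AdGFP and 27.96, 40.8 and 18.7 FPKM in AdCre, a log2 difference of -0.51 ± 0.28 (SE; block adjusted p = 0.108) that was -0.23 without AdCre replicate 3 and -0.79 without AdCre replicate 2. Pdk2 read 18.7, 27.4 and 20.1 FPKM against 17.3, 20.51 and 12.9 FPKM (-0.39 ± 0.22 SE, block adjusted p = 0.111, and -0.21 without AdCre replicate 3). Pdk4, the form raised by fasting and fatty acids, differed less, at 9.53, 12.6 and 11.6 FPKM in AdGFP and 10.9, 13.5 and 9.81 FPKM in AdCre (0.02 ± 0.17 SE). Pdk3 averaged 27.7 ± 2.53 (SD) and 26.7 ± 5.19 FPKM.

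Pfkfb4 was the only one of the 39 genes that was higher in AdCre in all 3 pairs. The PFKFB enzymes make and break down the sugar bisphosphate that activates phosphofructokinase, and their balance of kinase and phosphatase differs by isoform. Pfkfb4 (ENSMUSG00000025648, chromosome 9, 108991778 to 109032228) read 1.58, 1.46 and 1.17 FPKM in AdGFP and 4.04, 2.57 and 2.09 FPKM in AdCre. Every AdCre value was above every AdGFP value, as for 7.36% of all genes, and the mean was 2.06 times as high. The log2 difference was 0.95 ± 0.27 (SE; adjusted p = 0.324) without the block and 0.95 ± 0.16 (adjusted p = 0.0353) with it. The level is low and rests on 141 to 631 reads per sample. Pfkfb3, the most abundant of the family, read 11.3, 17.96 and 20.4 FPKM in AdGFP and 8.65, 17.8 and 13.0 FPKM in AdCre, the opposite direction, without passing (block adjusted p = 0.175). Pfkfb1 (0.710 ± 0.0841 and 0.706 ± 0.167 FPKM, SD) and Pfkfb2 (1.44 ± 0.0383 and 1.53 ± 0.112 FPKM) were low in both groups.

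Of the pair of glycogen genes, Gys1, the muscle glycogen synthase, read 79.4, 64.5 and 43.7 FPKM in AdGFP and 34.8, 55.0 and 26.4 FPKM in AdCre. Every pair was lower in AdCre, without passing (-0.71 ± 0.32 SE, block adjusted p = 0.0746), and pair 2 differed least (-0.23). Pygm, the muscle glycogen phosphorylase, read 75.1, 100.8 and 68.8 FPKM against 63.8, 73.6 and 48.4 FPKM, lower in each pair (-0.40 ± 0.21 SE, block adjusted p = 0.0518).

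Ratios between isoforms within a sample do not depend on the scaling between samples, and 12 of them were compared. With 3 samples against 3 the exact two-sided permutation test cannot give a p below 0.1, and no ratio was below 0.48 after Benjamini-Hochberg adjustment over the 12. The log2 ratio of Pgam2 to Pgam1 was -0.20, 0.11 and 0.07 in AdGFP and -0.44, -0.41 and -0.42 in AdCre. The muscle form thus made 46.5% to 51.9% of the sum of both in AdGFP, against 42.4% to 42.9% in AdCre. These groups did not overlap (difference -0.42, exact p = 0.1), and the AdCre samples were nearly identical. The Eno3 to Eno1 ratio was -0.62, -0.76 and -1.10 against -0.91, -1.35 and -1.49, and that of Slc2a4 to Slc2a1 was -3.09, -2.06 and -2.52 against -3.28, -2.75 and -2.93. Both were lower in AdCre in each pair (differences -0.42 and -0.43, exact p = 0.2 and 0.3) with overlapping groups, and the difference in Slc2a4 to Slc2a1 was -0.18 without AdGFP replicate 2 and -0.70 without AdGFP replicate 1.

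Other ratios ran the opposite way or had no common direction. Pygb, the brain form beside Pygm, read 60.6, 99.2 and 79.0 FPKM in AdGFP and 44.9, 57.5 and 47.0 FPKM in AdCre. Pygm against Pygb was higher in AdCre in each pair (difference 0.26), since Pygb differed more than Pygm. The groups overlapped, at 0.31, 0.02 and -0.20 in AdGFP and 0.51, 0.36 and 0.04 in AdCre. Aldoa against Aldoc (0.58, but 0.17 without AdGFP replicate 3 and 1.04 without AdGFP replicate 1) and Ldhb against Ldha (0.16, but -0.11 without AdGFP replicate 1) were also higher in each pair. The ratio of Pdk4 to Pdk2 was -0.96, -1.11 and -0.79 in AdGFP and -0.66, -0.59 and -0.40 in AdCre, without overlap (difference 0.40, exact p = 0.1), and that of Pdk4 to Pdk1 was higher in each pair (0.53). Hk2 to Hk1 (-0.09), Pfkm to Pfkl (0.16), Pfkm to Pfkp (0.00) and Slc16a1 to Slc16a3 (0.12) had no common direction over the pairs.

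**Figure D3:**
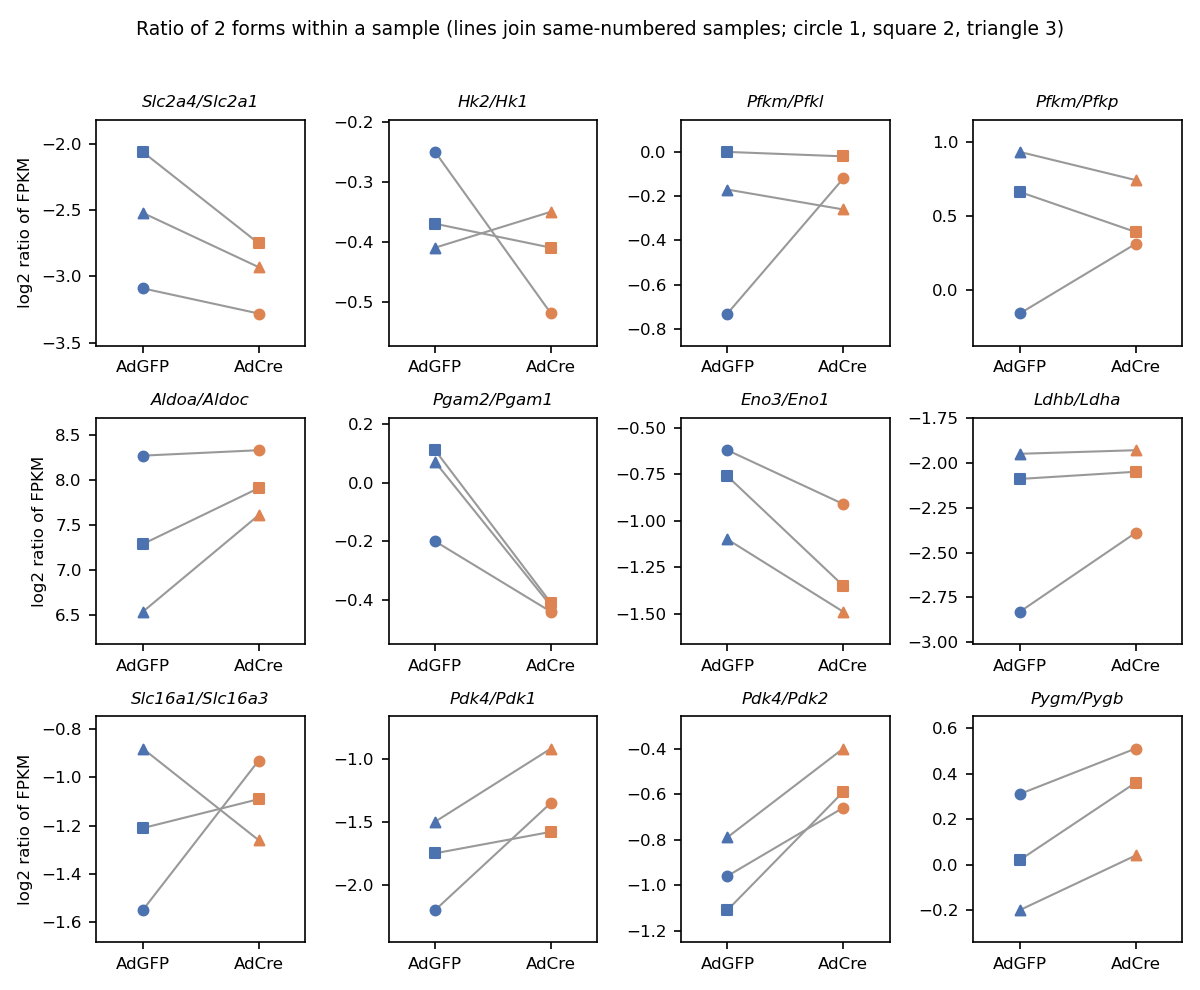
Log2 ratio of 12 isoform pairs within each sample, with AdGFP in blue, AdCre in orange and lines between same-numbered samples. Each panel has its own axis. Pgam2/Pgam1 (lower in AdCre) and Pdk4/Pdk2 (higher in AdCre) are the pairs whose groups do not overlap.

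The upstream sequences of 4 genes are shown because they put the muscle and general mutase beside a hypoxia-responsive gene of the pathway and beside the gene that rose. Each is the 250 bases before a RefSeq transcript start (GRCm38.p6), 5′ to 3′ on the gene's strand, and capitals mark matches to ACGTG on either strand, the core of the hypoxia response element, or, in Pgam2, to the MEF2 motif of muscle genes. The regions are chr11:5803797-5804046 (minus strand) for Pgam2, chr19:41911621-41911870 for Pgam1, chr7:46845554-46845803 for Ldha and chr9:108991652-108991901 for Pfkfb4.
Pgam2: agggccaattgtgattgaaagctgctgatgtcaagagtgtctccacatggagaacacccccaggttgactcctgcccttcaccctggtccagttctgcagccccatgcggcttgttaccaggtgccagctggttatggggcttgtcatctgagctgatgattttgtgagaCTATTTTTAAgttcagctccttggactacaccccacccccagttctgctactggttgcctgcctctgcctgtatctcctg
Pgam1: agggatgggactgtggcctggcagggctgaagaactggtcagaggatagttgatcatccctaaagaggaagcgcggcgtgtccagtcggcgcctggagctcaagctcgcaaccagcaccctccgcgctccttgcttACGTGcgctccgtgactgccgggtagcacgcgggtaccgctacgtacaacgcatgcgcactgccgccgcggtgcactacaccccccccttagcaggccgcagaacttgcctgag
Ldha: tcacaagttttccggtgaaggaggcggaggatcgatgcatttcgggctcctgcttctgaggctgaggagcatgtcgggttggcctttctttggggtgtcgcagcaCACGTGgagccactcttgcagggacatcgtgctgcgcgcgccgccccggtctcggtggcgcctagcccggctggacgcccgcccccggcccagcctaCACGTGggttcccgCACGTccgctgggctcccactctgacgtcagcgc
Pfkfb4: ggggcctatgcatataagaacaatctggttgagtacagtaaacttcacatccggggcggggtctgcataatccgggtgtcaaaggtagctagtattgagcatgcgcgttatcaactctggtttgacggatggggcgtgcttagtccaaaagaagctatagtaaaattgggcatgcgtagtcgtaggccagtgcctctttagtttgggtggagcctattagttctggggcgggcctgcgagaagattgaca
The window shown for Ldha had 3 matches to ACGTG, 2 of them inside CACGTG, a form of the E-box CANNTG, while its other start in the table (chr7:46846832-46847081) had none. Pgam1 had 1. Pgam2 had none of these but held 1 match to the MEF2 motif and 5 to CANNTG, and the window of Pfkfb4 held none of the motifs searched. Over the 37 members in the RefSeq table (Slc2a3 and Slc2a4 are not among them), 43.2% of genes had ACGTG before a start, against 25.3% of the tested genes and 18.5% of all genes in the table. CANNTG was found for 67.6%, 61.5% and 69.3%, the MEF2 motif for 5.41%, 2.13% and 3.42%, and TATAAA on either strand for 5.41%, 8.02% and 14.3%. These are counts of letters in a window and were not tested.

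Of 55 further genes of glycogen, pyruvate, shuttle and pentose phosphate metabolism, 51 were tested, with 33 lower and 18 higher in AdCre (26 lower and 25 higher after rescaling to TPM) and a median of -0.11 (-0.01 without AdCre replicate 3 and -0.26 without AdGFP replicate 3). None passed without the block, where 7 were lower (5.45% of all genes) and 3 higher (4.71%) at an unadjusted p under 0.05. With the block 7 fell (3.51% of all genes) and none rose (2.64%), and after rescaling to TPM 5 fell (2.44%) and 2 rose (3.9%). None of the 51 passed with the block when pair 3, the variance trend or the filter was left out, and 3 did without pair 2 (Gbe1, Ppp1r3c and Pygl). Genes of glycogen metabolism were among those that fell. Ppp1r3a, the muscle subunit that targets protein phosphatase to glycogen, read 21.9, 26.0 and 25.3 FPKM in AdGFP and 7.86, 13.8 and 13.4 FPKM in AdCre (-1.10 ± 0.23 SE without the block, adjusted p = 0.227, and 0.0183 with it). A related targeting subunit, Ppp1r3c, averaged 31.7 ± 7.25 (SD) and 17.1 ± 8.52 FPKM (-0.98, block adjusted p = 0.0293), and the branching enzyme Gbe1 averaged 33.7 ± 10.8 and 15.8 ± 7.27 FPKM (-1.15, block adjusted p = 0.0354). Pygb (-0.66, block adjusted p = 0.0269) and Mdh1, the cytosolic malate dehydrogenase of the shuttle that carries reducing power into mitochondria (-0.69, block adjusted p = 0.0195), fell as well. The 7 pentose phosphate genes had a median of 0.08.

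Because several members are induced by hypoxia, 16 hypoxia-induced genes outside glycolysis were read as well. All 16 were lower in AdCre by fitted difference (15 without AdCre replicate 1), with a median of -0.51, and none passed with or without the block. With the block and voom, 5 of the 16 passed as lower (Bnip3, Car9, Egln1, Higd1a and P4ha2, against 6.14% of all genes), and with the block but without pair 2, Bnip3 did. The median was -0.33 without AdCre replicate 1 or without AdCre replicate 3, and -0.80 without AdCre replicate 2. By pair the median was -0.89, -0.01 and -0.67, and in pair 2 the single genes went both ways, from -0.41 to 0.41. The 39 members had their smallest median in pair 2 too (-0.39, -0.13 and -0.37), as did the cardiomyocyte markers (-0.92, -0.64 and -0.87). Whether hypoxia had a part in these differences was not tested. The smallest p-values were those of P4ha2, a collagen prolyl hydroxylase (-0.74 ± 0.25 SE, unadjusted p = 0.0191), Ddit4, an inhibitor of mTOR signalling (-0.42 ± 0.15, unadjusted p = 0.0251), and Egln1, the oxygen sensor PHD2 (-0.57 ± 0.26, unadjusted p = 0.0626).

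Markers of cardiomyocytes moved with the glycolytic genes. All 12 were lower in AdCre (10 without AdGFP replicate 1 and 11 without AdCre replicate 3), with a median of -0.80 and pair medians of -0.92, -0.64 and -0.87, and 8 fell with the block (3.51% of all genes did). None of the 12 passed without the block, or with it when pair 3, the variance trend or the filter was left out, and 5 passed without pair 2 (0.718% of all genes passed as lower there). Their summed level was 2644 to 3909 FPKM in AdGFP and 1588 to 2304 FPKM in AdCre, without overlap. In bulk RNA, fewer cardiomyocytes and less of these transcripts per cardiomyocyte cannot be told apart, and the part of cell makeup in the differences above was not tested.

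Markers of other cell types were read in both groups. None of them passed without the block, and the counts of rising and falling markers that follow are with the block, where 3.51% of all genes fell and 2.64% rose. The 10 fibroblast markers summed to 2685 to 4747 FPKM in AdGFP and 2405 to 3453 FPKM in AdCre (median -0.31, with 3 falling and 1 rising). After rescaling to TPM, 2 of them fell and 2 rose (2.44% and 3.9% of all genes). The 6 epicardial markers summed to 115 to 230 FPKM and 98.7 to 129.9 FPKM (median -0.56, 2 falling, none after rescaling to TPM), and the 10 mural markers to 865 to 1340 FPKM and 1025 to 1232 FPKM (median 0.09, none passing). Summed endothelial markers read 139 to 206 FPKM in AdCre against 94.99 to 147 FPKM in AdGFP (median 0.38, 4 of 10 rising, and Vwf at -0.06), and macrophage markers 87.8 to 337 FPKM against 49.3 to 268 FPKM (median 0.51, 2 of 7 tested rising). Of 6 neuronal or glial markers 3 were tested and none passed, and no red blood cell marker reached the filter, with Hbb-bt and Hba-a2 at 0 in every sample.

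**Figure D4:**
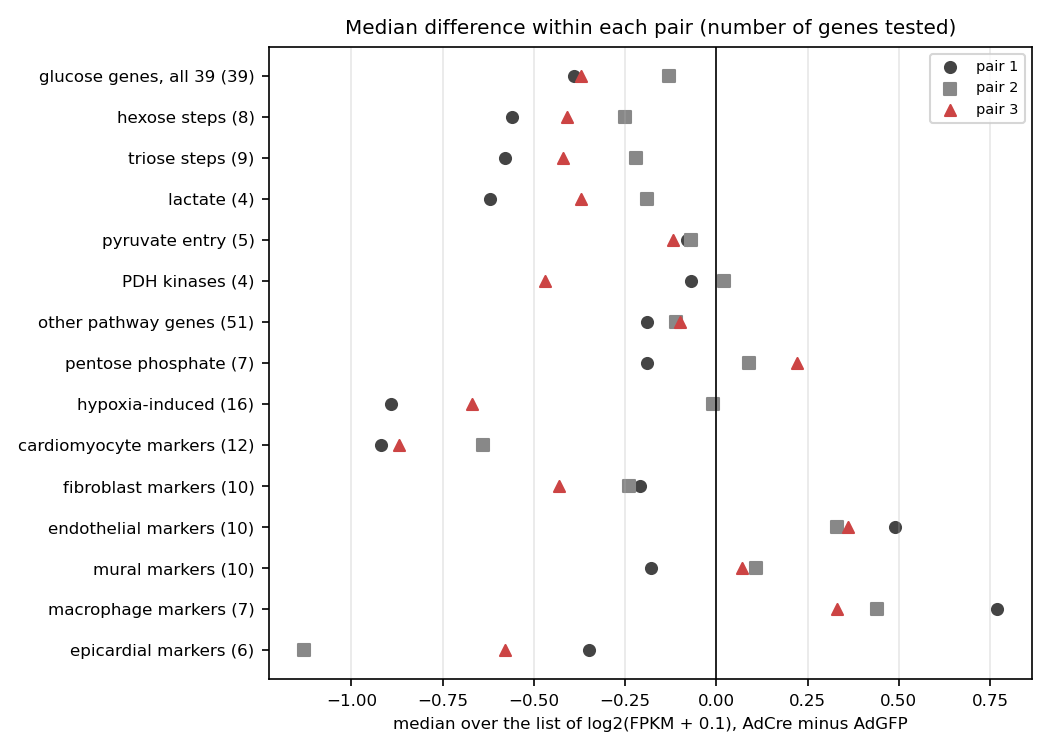
Median log2 difference (AdCre minus AdGFP) of gene lists, with 1 point for each same-numbered pair of samples and the number of genes tested in parentheses. Of the lists with 10 or more genes the cardiomyocyte markers lie lowest in each pair, and the 39 glycolytic genes lie between them and 0. The 6 epicardial markers lie lower still in pair 2 (-1.13, against -0.64 for the cardiomyocyte markers).

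The level of Rit1 itself was 8.55 ± 0.775 (SD) FPKM in AdGFP and 9.19 ± 0.351 FPKM in AdCre (log2 difference 0.11 ± 0.12 SE, adjusted p = 0.840). These values sum both alleles of the gene and so give no check of the induction. Depth was 25.3 to 32.4 megareads per sample as worked back from the deposited values, and the 39 genes were read at 65 to 189385 reads each. Some members share stretches of exon sequence with other genes, among them Pgk1 (53.9% of its 50-base words), Pgam1 (36.2%), Mpc1 (26.3%), Eno1 (26.0%), Pkm (25.8%) and Gapdh (25.1%). Their reads may be divided with those other genes. Slc2a4, Aldoc, Pgam2, Eno3 and Pfkfb4 share none. Exons of Mpc1 (23.1% of bases), Pdha1 (16.1%) and Gpi1 (11.5%) lie opposite exons of another gene. Without strand the reads of such partners cannot be told apart. Exons of Pfkfb2 (17.4%), Pkm (15.3%) and Pfkm (10.2%) lie under exons of another gene on the same strand, where strand does not tell the reads apart.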

How the data were processed

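Primary mouse cardiomyocytes of 2 groups, AdGFP and AdCre (3 samples each, grouped by the labels), were profiled by poly-T-selected RNA sequencing. The authors deposited FPKM (fragments per kilobase of exon, relative to library depth) for 54532 gene IDs, with 1 column per sample and no pooling. The submitters' processing notes name fastp, STAR 2.5, HTSeq 0.6.1 and mm10. Annotation and strand setting are not given in the sources used here. Symbols, exons and coordinates were taken from GENCODE M21 (54495 IDs matched, 37 did not), and upstream sequences from RefSeq.

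Values were tested as log2(FPKM + 0.1), so fold changes of low genes are understated, for genes averaging at least 0.5 FPKM, in limma 3.58.1 (R 4.3.3; lmFit, eBayes with trend, group term, Benjamini-Hochberg adjustment, threshold 0.05). A second fit added the replicate number as a block. Deviations from the group means were correlated at 0.568, 0.268 and 0.506 between same-numbered samples and at -0.497 to 0.0364 between the others, which was taken as pairing by number. That rests on the values alone, since the labels do not say what a number marks. FPKM times exon length gave whole reads, within 0.02 reads, for 98.1% to 98.3% of values up to 50 reads. These reads (25.3, 26.0 and 26.5 megareads in AdGFP, 26.0, 27.0 and 32.4 megareads in AdCre, in ascending order) were tested with voom as an alternative. Other alternatives changed the pseudocount, filter, scaling, trend and samples. The fits were tested on simulated data.

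The 39 genes and the other lists were chosen with earlier results of these data known. Values in every sample are given for members with an unadjusted p under 0.05, those passing with the block, both genes of each isoform pair and the most abundant form of each step. Of the other pathway and hypoxia lists, at most 5 passing genes by smallest p, or 3 where none passed, are named. Bnip3, Car9, Higd1a, Pygl and Vwf were named after their values were seen.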

Additional observations from a re-analysis of the deposited data

How the results depend on the processing

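Same-numbered samples were fitted as pairs with a replicate block, which raised the genes called from 1 to 848 over all genes, from 0 to 5 among the 39 members and from 0 to 7 among the other pathway genes. It changed no call on the hypoxia list and left the median of the members at -0.35. Alternatives that combine the block with another choice were added after the data were seen. The median of the members stayed below 0 in every alternative run, from -0.47 to -0.12, and 8 of the 12 isoform ratios kept their direction under the other pseudocounts, the reads worked back and the fits leaving out a sample (leaving out a pair was not run for them). Without AdGFP replicate 1 the differences in Ldhb/Ldha (-0.11), Pfkm/Pfkl (-0.05) and Slc16a1/Slc16a3 (-0.05) changed sign, and that in Pfkm/Pfkp, 0.00 in the report, ran from -0.31 to 0.23. Without the block, the count over all genes was 3 with a pseudocount of 1, 4 without the trend, 0 without the filter or with voom, and 0 to 2 when leaving out a sample, and no member passed in any of these. With the block, 784 and 782 genes passed at pseudocounts of 1 and 0.01, 922 at a mean of at least 1 FPKM, 875 in TPM, 778 with median centring, 762 with quantile normalization, 1533 with voom, 17 without the filter, 0 without the trend, and 772, 149 and 1 without pairs 1, 2 and 3. Members passing in the same order were 5, 5, 6, 3, 4, 3, 17, 0, 0, 5, 0 and 0, and other pathway genes 7, 7, 7, 7, 6, 6, 15, 0, 0, 8, 3 and 0. The cause of the differences was not tested, except that fewer samples or more genes enter some of these fits by construction. With voom and the block, 16 members were lower (6.14% of all genes were) and 1 higher (4.97%). The scaling to TPM turned the split of all genes passing with the block from 484 lower and 364 higher to 337 lower and 538 higher. Small differences changed sign in some alternatives. Over the fits leaving out a sample they ran from -0.26 to 0.12 for Slc2a1, -0.17 to 0.43 for Slc2a3, -0.49 to 0.09 for Hk1 and -0.61 to 0.05 for Hk2. They ran from -0.10 to 0.30 for Mpc1, -0.27 to 0.09 for Pdha1, -0.09 to 0.29 for Pdhb, -0.26 to 0.03 for Dlat, -0.22 to 0.04 for Pdk3, -0.11 to 0.12 for Pdk4 and -0.18 to 0.09 for Pfkfb1, and Eno2 was -0.07 without AdGFP replicate 1. Other members kept their sign in these fits but moved, -0.58 to -0.11 for Gpi1, -0.55 to -0.20 for Pfkm, -0.65 to -0.10 for Pfkp, -0.59 to -0.19 for Aldoa, -0.73 to -0.32 for Tpi1, -0.61 to -0.21 for Pgk1, -0.59 to -0.16 for Ldha, -0.35 to -0.11 for Ldhb, -0.68 to -0.22 for Slc16a1, -0.96 to -0.22 for Slc16a3, -0.45 to -0.15 for Mpc2, -0.60 to -0.08 for Pfkfb3, -0.53 to -0.23 for Pygm and -1.0 to -0.47 for Gys1. In TPM, with or without the block, Eno2 was 0.09, Pdk3 0.02 and Pfkfb1 0.06, and Eno2 was 0.01 with median centring or quantile normalization and 0.00 with voom. In paired fits, Slc2a1 was 0.05, Mpc1 -0.01, Pdk4 -0.07 and Pfkfb1 0.12 without pair 1, Slc2a3 -0.12, Eno2 0.02, Mpc1 -0.03 and Pdk4 -0.03 without pair 2, and Eno2 0.05, Pdk3 0.05 and Pfkfb1 0.06 without pair 3. Depth limits Pfkfb1, with 65 to 93 reads per sample, more than any other member.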
